A study of Mus musculus with 6 samples.

Results

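Sprr1a, Procr, Ly6a, Gzme, Tnip3 and Ndnf are 6 of the 31055 features counted in single neoplastic cells sorted from mouse lung tumors. The genes were chosen by symbol, after their levels in keratin-rich cells of these same data had been seen, so their levels in those cells are a description and carry no test. Lung tumors were initiated with intratracheal Lenti-Cre and developed for 20 weeks, after which the mice received vehicle or tamoxifen (4 mg doses in corn oil) for 2 weeks. The labels name 6 mice, each carrying Lkb1XTR/XTR and the Cre-dependent red reporter Rosa26LSL-tdTomato. In the XTR allele of Lkb1 (gene symbol Stk11), Cre turns on a gene trap that carries GFP and truncates the transcript, and a tamoxifen-activated FLPo recombinase, FLPo-ERT2, can remove the trap and restore the gene. The 3 mice labelled Restored carried FLPo-ERT2 and received tamoxifen. The 3 mice labelled NonRestored were 1 vehicle-treated mouse with FLPo-ERT2 and 2 mice without it, of which 1 received tamoxifen and 1 vehicle. Cells positive for CD45, CD31, F4/80 or Ter119 were removed during sorting. All libraries lay in 1 matrix of 16017 cells, and no barcodes or map from cells to mice were used here, so the matrix was 1 sample and restored mice were not compared with non-restored mice.

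Transitional cells are an epithelial state between the surfactant-making alveolar type II (ATII) cell and the flat alveolar type I (ATI) cell that covers most of the gas-exchange surface. They carry much keratin 8 and keratin 18 and appear after lung injury, when ATII cells are replacing ATI cells. The genes described here are of unlike function. Sprr1a encodes a small proline-rich protein that transglutaminases cross-link into the cornified envelope of squamous epithelia, and Procr encodes the receptor that presents protein C to thrombin on endothelium. Ly6a encodes the lipid-anchored surface protein Sca-1, used as a marker of several stem and progenitor populations. Gzme encodes granzyme E, a serine protease of cytotoxic lymphocyte granules. Tnip3 encodes a partner of the deubiquitinase A20 that restrains NF-kB signaling, and Ndnf encodes a secreted glycoprotein first studied as a neurotrophic factor.

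A unique molecular identifier (UMI) is a tag that lets each captured transcript be counted once. Of the 16017 cells, 12183 had at least 500 genes and at most 20% mitochondrial UMIs. Cells with at least 50 UMIs of Krt8 and Krt18 together per 10000 were called keratin-high (1183 cells) and were split by Hopx, a gene of ATI cells, at 4 UMIs per 10000 into 784 Hopx-low and 399 Hopx-raised cells. The reference was the 8363 Sftpc-high cells, which had at least 500 UMIs of surfactant protein C per 10000 and less keratin. Median depths were 26723, 18332 and 21348 UMIs per cell in these 3 classes. Shares of cells with a UMI were therefore taken after drawing 5000 UMIs from every cell at random, called thinned below, which kept 721, 369 and 8083 cells. Levels are in counts per 1000000 (CPM), for which a gene's UMIs were summed over a class and divided by all UMIs of that class. All intervals are exact 95% intervals of counting error (Poisson for levels, binomial for ratios and shares) and say nothing of the spread between mice.

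The label was checked against markers that the class limits did not use. Of 10 transitional markers without Krt8 and Krt18, 9 were at least 2-fold higher in Hopx-low than in Sftpc-high cells. Krt19 stood at 1951 against 196 CPM, Cldn4 at 481 against 7.68 CPM and Clu at 6917 against 417 CPM. Of 11 ATII markers without Sftpc, 10 were at least 2-fold lower, for example Lyz2 at 637 against 12170 CPM. Sftpc stood at 19070 CPM in the Hopx-low cells, and 111 of the 784 cells met the Sftpc limit as well. A Sftpc UMI is no sign of expression here, since after thinning it was found in 96.8% of Hopx-low cells and also in 93.4% of endothelial-marker, 95.6% of fibroblast-marker and 94.1% of immune-marker cells, the cells outside these classes that passed a limit on those markers, which had 1222, 1518 and 3651 CPM. The part of free RNA in the Hopx-low level was not tested. In the Hopx-low cells the 7 endothelial genes summed to 9.16 CPM, the 7 fibroblast genes to 9.69 CPM and the 8 immune genes to 0.444 CPM. Of other lineage lists, 1 gene each stood out: Msln among 5 mesothelial genes at 127 against 2.76 CPM in Sftpc-high cells, with the other 4 at 0 UMIs, and Trbc2 among 7 T and NK cell genes at 33.7 against 0.262 CPM, with the other 6 at 0 UMIs. Of the 784 cells, 1 passed a limit on endothelial, fibroblast or immune markers. Doublets were kept and no caller was run.

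The genes lie on 5 chromosomes of GRCm38 in the GENCODE M21 annotation. Sprr1a is at chr3:92483952-92485895 on the minus strand within the Sprr gene cluster, Procr at chr2:155751117-155755471 on the plus strand, Ly6a at chr15:74994877-74998031 on the minus strand within the Ly6 cluster, and Gzme at chr14:56117626-56120625 on the minus strand among granzyme and mast cell protease genes. Tnip3 (chr6:65525313-65634040) and Ndnf (chr6:65671590-65712326) are neighbours on the plus strand with a gap of 37.5 kb. No annotated gene overlaps any of the 6. Of 411 windows of 90 bases in the last 500 bases of the Gzme transcript, 7 also occur in Gzmd, so counts of these paralogs are uncertain for reads in those windows, whereas no window of the other 5 genes occurs in a transcript of another gene.

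Promoter sequence was at hand for Sprr1a, Procr, Gzme and Tnip3 (RefSeq, GRCm38.p6, 250 bases before to 50 after the start), and 150 bases of each are shown because genes raised in 1 cell state invite a look at the letters they share. Each run reads toward the gene on its own strand and ends before the first annotated exon letter near it, and capitals mark matches to AP-1 (TGANTCA), C/EBP (TTGCNNAA), TEAD (GGAATG) and NF-kB motifs on either strand and to TATAAA on the gene's strand. The windows are chr3:92485896-92486045 (minus strand), chr2:155750967-155751116 (plus), chr14:56120626-56120775 (minus) and chr6:65590248-65590397 (plus).
Sprr1a: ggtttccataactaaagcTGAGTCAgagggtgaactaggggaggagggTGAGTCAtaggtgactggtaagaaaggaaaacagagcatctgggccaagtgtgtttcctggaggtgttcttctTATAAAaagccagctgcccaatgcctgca
Procr: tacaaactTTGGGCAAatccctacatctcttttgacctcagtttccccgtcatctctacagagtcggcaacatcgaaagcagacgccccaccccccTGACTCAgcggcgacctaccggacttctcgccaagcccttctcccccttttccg
Gzme: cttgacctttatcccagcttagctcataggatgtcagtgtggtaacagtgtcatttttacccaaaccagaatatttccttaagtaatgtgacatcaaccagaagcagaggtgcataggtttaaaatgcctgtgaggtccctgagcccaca
Tnip3: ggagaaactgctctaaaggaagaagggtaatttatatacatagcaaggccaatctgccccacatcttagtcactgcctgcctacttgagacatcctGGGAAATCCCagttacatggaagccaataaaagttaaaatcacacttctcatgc

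The Sprr1a window held the AP-1 letters at 2 places, 146 and 116 bases before the start, and a TATAAA 43 bases before it. Procr held the AP-1 letters once, 154 bases before the start, and a C/EBP match 242 bases before it. The Tnip3 window, which lies inside the GENCODE gene at a start that RefSeq uses, held an NF-kB match 54 bases before the start. The Gzme window held none of the 5 motifs, and none of the 4 windows held the TEAD letters. These letters are common: of 32851 RefSeq promoter windows of the same 300 bases, 7.81% held the AP-1 letters, 10.8% C/EBP, 14.7% TEAD, 8.46% NF-kB and 8.32% TATAAA. A match describes letters only.

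**Figure D1:**
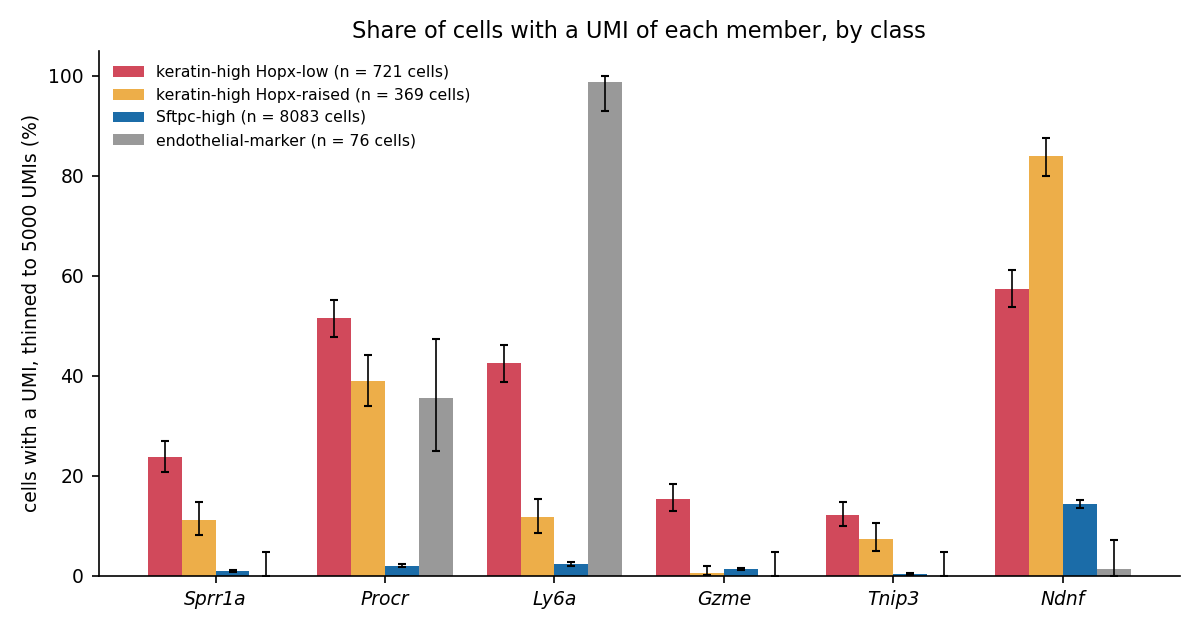
Share of cells (%) with a UMI of each gene after thinning to 5000 UMIs, by cell class; bars are shares and whiskers exact 95% binomial intervals over cells of 1 pooled sample. Ndnf reached 84.0% in keratin-high Hopx-raised cells, Gzme was nearly restricted to Hopx-low cells among the keratin-high, and Ly6a reached 98.7% in endothelial-marker cells.

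All 6 genes were at least 2-fold higher in keratin-high Hopx-low than in Sftpc-high cells. Across 13509 features with at least 50 UMIs in both classes together, 13.7% were at least 2-fold higher in Hopx-low cells and 9.25% at least 2-fold higher in Sftpc-high cells, with a median log2 ratio of 0.26. Because the genes were chosen on this contrast, their count of 6 is not read against that share. Counts from gene lists below for this contrast have the same background shares. Procr showed the largest ratio of the 6 and Ndnf the smallest.

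Sprr1a, the cornified-envelope gene, had 391 CPM (383 to 399) in Hopx-low, 175 CPM (166 to 184) in Hopx-raised and 9.51 CPM (9.07 to 9.95) in Sftpc-high cells, a ratio of 41.1 (39.1 to 43.3) between the first and the last. After thinning, 23.7% of Hopx-low cells (20.7 to 27.0), 11.1% of Hopx-raised cells and 0.903% of Sftpc-high cells had a UMI (36.0%, 17.8% and 1.91% without thinning). Its transcripts were unevenly spread. The 130 Hopx-low cells with at least 10 UMIs held 94.9% of the class's Sprr1a UMIs, 20 cells were enough for 50% of them, and the richest cell held 414. In Sftpc-high cells too, 25 of 8363 cells held 85.5% of the UMIs.

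Few of its cluster neighbours followed Sprr1a. Of 22 cornified-envelope genes fixed as a list, 21 were counted, 6 had enough UMIs to compare, and 4 of these were at least 2-fold higher in Hopx-low than in Sftpc-high cells and 0 lower (median log2 ratio 1.71). Besides Sprr1a they were Sprr2a3 (6.49 against 0.0576 CPM) and the cross-linking enzymes Tgm1 (97.4 against 21.4 CPM) and Tgm2 (43.7 against 18.7 CPM). Involucrin, encoded by Ivl, another envelope precursor, stood at 11.3 against 7.82 CPM. Sprr1b, Sprr3 and Sprr4, on either side of Sprr1a, had 0 UMIs in the Hopx-low cells, which allows at most 0.133 CPM each.

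Procr, the protein C receptor gene, had 531 CPM (521 to 540) in Hopx-low, 208 CPM (198 to 218) in Hopx-raised and 5.35 CPM (5.02 to 5.69) in Sftpc-high cells. That made a ratio of 99.3 (93.1 to 106) between Hopx-low and Sftpc-high cells. With 51.5% of Hopx-low (47.7 to 55.2), 39.0% of Hopx-raised and 1.95% of Sftpc-high cells holding a UMI after thinning (73.1%, 59.9% and 7.17% without), Procr was found in more Hopx-low cells than Sprr1a, Ly6a, Gzme or Tnip3. Endothelial-marker cells, in which the gene is a known product, had 139 CPM and a UMI in 35.5% of 76 thinned cells (49.6% without thinning).

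The list of 16 protein C and clotting genes moved with Procr. Of 11 with enough UMIs, 8, Procr among them, were at least 2-fold higher in Hopx-low than in Sftpc-high cells and 0 lower. The median log2 ratio was 2.44. Tissue factor, F3, which starts the clotting cascade, stood at 1041 against 43.2 CPM, and Plaur, the receptor of the plasminogen activator urokinase, at 211 against 8.47 CPM. Plat, the tissue plasminogen activator gene, had 29.5 against 0.314 CPM, and Plau, urokinase itself, 5.07 against 0.293 CPM. Thrombomodulin, Thbd, the partner of Procr on endothelium, was low at 3.96 against 0.765 CPM.

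Ly6a, the Sca-1 gene, had 456 CPM (447 to 465) in Hopx-low, 71.8 CPM (66.1 to 77.9) in Hopx-raised and 8.02 CPM (7.62 to 8.43) in Sftpc-high cells, a ratio of 56.8 (53.9 to 60.0) between the first and the last. UMIs were found in 42.4% (38.8 to 46.1), 11.7% and 2.35% of thinned cells (59.8%, 24.6% and 8.66% without thinning). Ly6a was not particular to keratin-high cells, since endothelial-marker cells had 2329 CPM and a UMI in 75 of 76 thinned cells. Within its family the pattern was mixed. Of 14 Ly6-type genes with enough UMIs, 5, Ly6a among them, were at least 2-fold higher in Hopx-low than in Sftpc-high cells and 4 lower. The median log2 ratio was 0.28. Ly6d (121 against 32.5 CPM), Ly6g6c (55.8 against 2.75 CPM) and Psca (135 against 8.16 CPM) were among the higher, and Ly6c2 (13.9 against 95.7 CPM) among the lower. The family members that flank Ly6a differed from it, with Ly6i at 0.711 against 1.69 CPM and Ly6c1 at 451 against 317 CPM.

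Gzme, the granzyme gene, had 394 CPM (386 to 402) in Hopx-low, 2.57 CPM (1.59 to 3.93) in Hopx-raised and 10.4 CPM (9.95 to 10.9) in Sftpc-high cells. It was thus 37.9 times higher (36.1 to 39.8) in Hopx-low than in Sftpc-high cells. Alone among the 6, its level was lower in Hopx-raised than in Sftpc-high cells, by 4.05 times (2.64 to 6.55). That rests on 21 UMIs in Hopx-raised cells, and 2 of 369 thinned cells had a UMI, against 105 of 8083 Sftpc-high cells. A UMI was found in 15.4% (12.8 to 18.2), 0.542% and 1.30% of thinned cells (23.5%, 1.50% and 2.85% without thinning). Most of its UMIs lay in few cells, while 100 Hopx-low cells with 1 to 9 UMIs held 263 of the class's 8858. The ratio to Sftpc-high cells was 11.2 without the cells holding at least 100 UMIs of one of the 6 genes. That alternative was chosen after seeing the data. In the Hopx-low class 84 cells with at least 10 UMIs held 97.0% of the UMIs, 14 cells held 50% of them, and the richest cell held 602.

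Of the T and NK cell genes, Trbc2, a T-cell receptor constant segment, was seen beside Gzme and the others, Cd3e and Nkg7 among them, had 0 UMIs in all 784 Hopx-low cells. Trbc2 was found in 17.1% (10.6 to 25.4) of thinned Hopx-low cells with Gzme and 8.36% (6.29 to 10.8) of those without. It stood at 52.4 CPM in cells with at least 10 Gzme UMIs and 25.3 CPM in cells with none. Of 16 granzyme and granule genes, 6 had enough UMIs. Of these 3, Gzme among them, were at least 2-fold higher in Hopx-low than in Sftpc-high cells and 1 lower (median log2 ratio 1.31). The granule genes Gzmb, Gzmc, Gzmf and Gzmg were at 0 UMIs in Hopx-low cells and Srgn, the granule proteoglycan, at 0.0445 CPM. Gzmm stood at 0.489 against 0.728 CPM in Sftpc-high cells. Immune-marker cells had 0 Gzme UMIs in 78 cells with a median depth of 23683.5 UMIs, and 0 of the 68 thinned cells had one, which allows a UMI in up to 4.41% of them at 3 counts. Serpinb9, an intracellular granzyme inhibitor, stood at 153 CPM in Hopx-low, 402 CPM in Hopx-raised and 43.6 CPM in Sftpc-high cells.

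Gzme's neighbours on chromosome 14 included Mcpt8, a mast cell and basophil protease gene 32.4 kb away, with 56.7 CPM in Hopx-low, 0.245 CPM in Hopx-raised and 0.120 CPM in Sftpc-high cells. Mcpt1, 97.2 kb away, had 19.0, 0 and 0.0628 CPM, and Mcpt2, 73.0 kb away, 3.73, 0 and 0.403 CPM. Ctsg, which lies between Mcpt8 and Gzme, had 0 UMIs in all 3 classes. Gzmd on the other side, 8.93 kb away, had 1.56 CPM in Hopx-low cells. In thinned Hopx-low cells Mcpt8 was found in 35 of 111 cells with a Gzme UMI (31.5%, 23.0 to 41.0) and in 10 of 610 without (1.64%, 0.789 to 2.99).

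Splitting the Hopx-low cells by their Gzme UMIs placed these proteases in the same cells. Mcpt8 stood at 2.03 CPM in the 600 cells with 0 Gzme UMIs, 27.2 CPM in the 100 cells with 1 to 9 and 326 CPM in the 84 cells with at least 10, and Mcpt1 at 0.0653, 0.816 and 121 CPM. The Mcpt1 UMIs came from few cells, 5 of the 84. Genes of mast cells, basophils and leukocytes, chosen after the protease values were seen, were checked in the same cells. In the 84 cells Cpa3, Ms4a2, Fcer1a, Kit and the leukocyte gene Ptprc each had 0 UMIs, whereas the epithelial gene Epcam, which the class limits did not use, stood at 1103 CPM with UMIs in all 84 cells. Hdc, the histamine-making enzyme of mast cells and basophils, was detected, but at 10.5 CPM in the 84 cells and 11.8 CPM in the 600 without Gzme. Median depth rose along the split, from 23660.5 to 33822 and 37582 UMIs per cell.

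**Figure D2:**
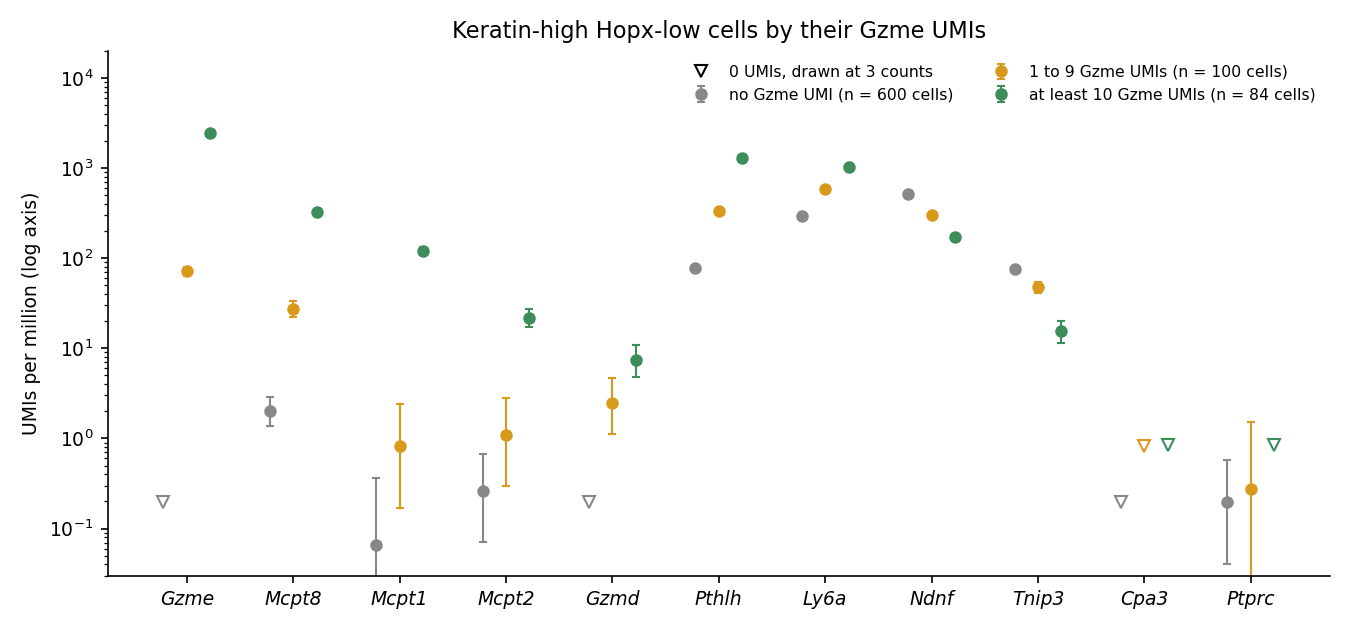
Level (CPM, log axis) of Gzme, of proteases encoded beside it, of other genes of this account and of the leukocyte genes Cpa3 and Ptprc in keratin-high Hopx-low cells with 0, 1 to 9 and at least 10 Gzme UMIs (600, 100 and 84 cells); whiskers are exact 95% Poisson intervals and open triangles are genes with 0 UMIs drawn at 3 counts. Mcpt8 stood at 2.03, 27.2 and 326 CPM, and Cpa3 had 0 UMIs in all 3 sets.

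Tnip3, the A20 partner, had the lowest level of the 6 in Hopx-low and in Sftpc-high cells, while in Hopx-raised cells Gzme was lower. It had 61.7 CPM (58.5 to 65.0) in Hopx-low, 24.1 CPM (20.9 to 27.7) in Hopx-raised and 0.859 CPM (0.733 to 1.00) in Sftpc-high cells, a ratio of 71.8 (61.1 to 85.0) between the first and the last. After thinning a UMI was found in 12.2% (9.91 to 14.8), 7.32% and 0.297% of cells (23.5%, 16.3% and 1.39% without). The Tnip3 UMIs were unevenly spread, with 17 Hopx-low cells holding 50% of them. Immune-marker cells had 22.9 CPM, of which 1 cell gave 45.0%.

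All 21 genes of the NF-kB feedback list had enough UMIs. Of these 10, Tnip3 itself among them, were at least 2-fold higher in Hopx-low than in Sftpc-high cells and 1 lower (median log2 ratio 0.98). Over all features compared, 13.7% were higher and 9.25% lower by this measure. Tnf, a cytokine that turns NF-kB on, stood at 6.49 against 0.152 CPM, and Tnfaip3, which encodes A20, at 16.5 against 4.11 CPM. Nfkbia and Nfkbie, inhibitors that NF-kB induces, stood at 338 against 164 CPM and 10.9 against 2.10 CPM, and Nfkb2 and Relb of the non-canonical arm at 43.1 against 11 CPM and 48.6 against 15.2 CPM. Of the relatives of Tnip3, Tnip1 was among the higher genes, at 32.1 against 13.1 CPM, and Tnip2 stood at 9.07 against 8.35 CPM. Il1b was the lower gene, at 0.133 against 0.477 CPM, from 3 and 91 UMIs.

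Ndnf was the exception among the 6. It had 426 CPM (418 to 435) in Hopx-low, 865 CPM (845 to 886) in Hopx-raised and 60.3 CPM (59.2 to 61.5) in Sftpc-high cells, so that the Hopx-low level was 7.06 times (6.87 to 7.25) that of Sftpc-high cells. A UMI was found in 57.4% (53.7 to 61.1), 84.0% (79.9 to 87.6) and 14.3% of thinned cells (77.2%, 92.0% and 28.5% without). Its UMIs were the most evenly spread, with 85 Hopx-low cells holding 50% of them. It was also high outside the keratin-high classes: the 1151 cells with Hopx at 4 or more per 10000 but less keratin and Sftpc, and without other-lineage markers, had 767 CPM and a UMI in 73.6% of 951 thinned cells. Of 16 FGF receptor genes and regulators with enough UMIs, 2 were at least 2-fold higher in Hopx-low than in Sftpc-high cells and 2 lower (median log2 ratio 0.044). Besides Ndnf, the higher gene was the heparan sulfate carrier Gpc1 (42.8 against 10.0 CPM). The lower genes were the receptor Fgfr2 (21.3 against 82.2 CPM) and the ligand Fgf1 (20.3 against 45.1 CPM).

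A list of 16 interferon response genes was read beside the 6, since Ly6a is known to respond to interferon. Of the 16, 6 were at least 2-fold higher in Hopx-low than in Sftpc-high cells and 0 lower, none of these above 12.5 CPM, for example Rsad2 at 3.69 against 0.272 CPM and Mx1 at 2.62 against 0.304 CPM. Between the keratin-high classes 12 of the 16 were higher in Hopx-raised cells and 4 in Hopx-low cells. The list summed to 443 CPM in Hopx-raised and 310 CPM in Hopx-low cells, and a part of interferon in the Ly6a level was not tested. At least 2-fold higher in Hopx-raised cells were 6, Ifit1, Ifit2, Ifit3, Irf7, Oasl2 and Usp18, with Ifit3 at 27.8 against 2.58 CPM. At least 2-fold higher in Hopx-low cells were 3, Rsad2, Mx1 and Ifi27l2a. In Hopx-raised cells these had 0.612, 1.10 and 0.612 CPM, from 5, 9 and 5 UMIs. Over all features compared between these classes, 3.14% were at least 2-fold higher in Hopx-raised and 4.79% in Hopx-low cells.

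Within keratin-high cells, 5 of the 6 genes were at least 2-fold higher in Hopx-low than in Hopx-raised cells and Ndnf was 2.03 times (1.97 to 2.09) higher in Hopx-raised cells. The background over 11221 features was 4.79% higher in Hopx-low and 3.14% higher in Hopx-raised cells, with a median log2 ratio of -0.05. The genes were chosen with this split known, so nothing is read from their count. Gzme had the largest ratio, 153 (100 to 248, counting error only), and under the alternatives it ran from 20.7 with Hopx divided at 2 per 10000 to 295 with a limit of 8, with 77.2 at a keratin limit of 30. Ly6a followed with 6.35 (5.84 to 6.91) and had 2.91 and 24.2 with the same Hopx limits of 2 and 8. Tnip3 with 2.56 (2.20 to 2.99) and Procr with 2.55 (2.42 to 2.68) had intervals that overlapped, and Sprr1a followed with 2.23 (2.11 to 2.36). The ratios of these last 3 lay close to 2 and also depended on the limits: with Hopx divided at 2 per 10000 they were 1.62 for Tnip3, 1.80 for Procr and 1.76 for Sprr1a, and with a keratin limit of 100 per 10000 they were 1.52, 1.92 and 1.69. With Hopx divided at 8 they were 4.90, 2.36 and 4.15. Krt19, with a ratio of 1.06, and Sftpc, with 0.966, were at similar levels in both classes.

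**Figure D3:**
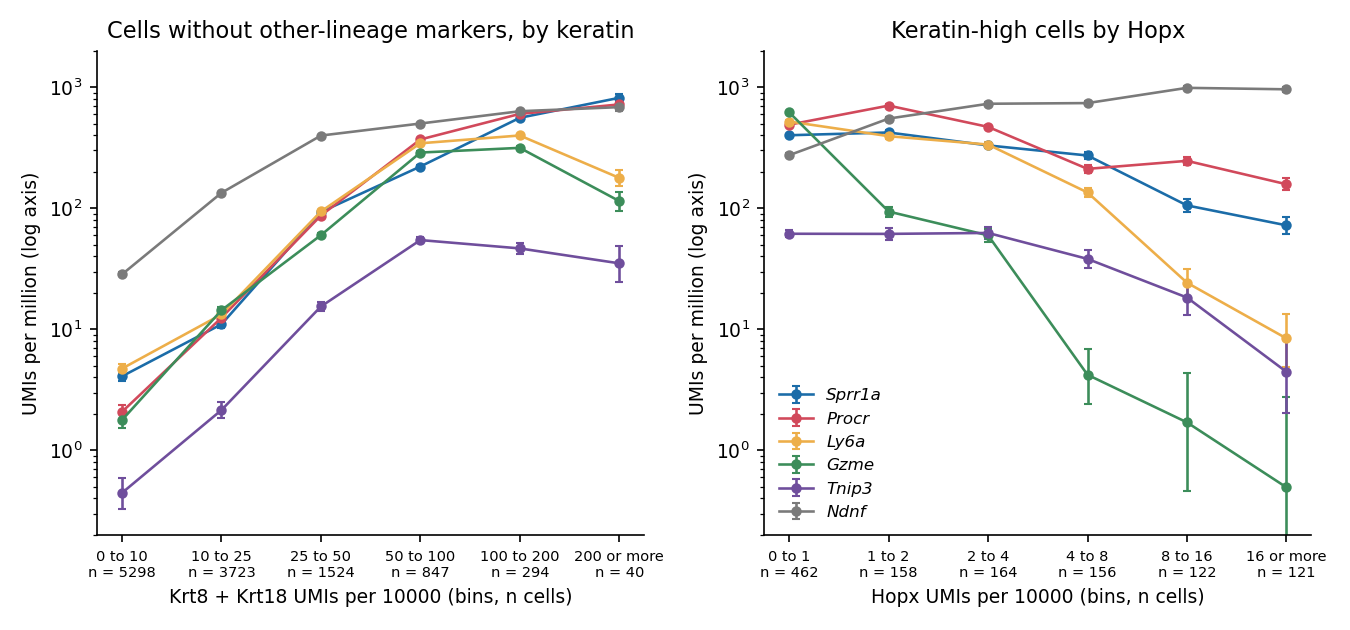
Level (CPM, log axis) of the 6 genes in kept cells without endothelial, fibroblast or immune markers, binned by Krt8 and Krt18 UMIs per 10000 (left) and in keratin-high cells binned by Hopx UMIs per 10000 (right), with the number of cells per bin; whiskers are exact 95% Poisson intervals. Along Hopx, Gzme went from 619 to 0.495 CPM and Ndnf from 274 to 961 CPM.

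The keratin bins left out the 457 of 12183 kept cells that passed a limit on endothelial, fibroblast or immune markers. In the cells so chosen, all 6 genes were lowest in the 5298 cells with fewer than 10 keratin UMIs per 10000, where Ndnf had 28.5 CPM and the other 5 between 0.445 CPM for Tnip3 and 4.74 CPM for Ly6a. With the marker cells included Ly6a had 40.4 CPM in this bin, above the 13.3 CPM of the next, and the other 5 genes were still lowest in it. Sprr1a and Procr were highest in the 40 cells with 200 or more, at 817 and 720 CPM, and Ndnf followed the same course to 684 CPM. Ly6a and Gzme were highest in the 294 cells with 100 to 200, at 399 and 315 CPM, and were lower in the richest bin, at 178 and 115 CPM. The Tnip3 level was highest in the 847 cells with 50 to 100, at 54.6 CPM. Its thinned shares were 10.4% in that bin, 10.7% with 100 to 200 and 13.5% with 200 or more, with overlapping intervals. Just outside the keratin limit, in 208 Hopx-low cells with 40 to 50 per 10000, the levels ran from 29.7 CPM for Tnip3 to 286 CPM for Ly6a, and just inside it, in 173 cells with 50 to 60, from 68.2 CPM for Tnip3 to 364 CPM for Ndnf. The limit thus cuts a gradient.

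Along Hopx in keratin-high cells, Gzme changed most. It stood at 619 CPM in the 462 cells with fewer than 1 Hopx UMI per 10000, 93.9 CPM in the 158 cells with 1 to 2, 4.21 CPM in the 156 cells with 4 to 8 and 0.495 CPM in the 121 cells with 16 or more. Ly6a went from 520 to 8.41 CPM and Sprr1a from 401 to 72.3 CPM over the same ends, whereas Ndnf went from 274 to 961 CPM. Next to the Hopx limit, the 70 cells with 3 to 4 had 79.1 CPM of Gzme and 422 CPM of Ly6a, and the 49 cells with 4 to 5 had 11.5 and 197 CPM. Around the Sftpc limit, the 261 cells with 400 to 500 had levels from 3.51 CPM for Tnip3 to 270 CPM for Ndnf, and the 254 cells with 500 to 600 from 3.43 to 205 CPM. Sprr1a went from 85.9 to 24.3 CPM across this limit and Gzme from 36.2 to 53.3 CPM. Procr, Ly6a and Tnip3 had 17.4, 24.3 and 3.43 CPM just inside it. There all of the genes were thus above their levels in the whole Sftpc-high class.

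The genes were found together in many single cells. Of 721 thinned Hopx-low cells, 461 had UMIs of at least 2 of the 6 genes, 63.9% (60.3 to 67.5), against 46.1% (40.9 to 51.3) of Hopx-raised and 1.89% (1.61 to 2.21) of Sftpc-high cells. Without thinning the shares were 80.7%, 69.9% and 9.20%. In the Hopx-low class 93 cells had none of the 6, 167 had 1, 194 had 2, 172 had 3, 85 had 4, 10 had 5 and 0 had all 6. The commonest sets were Procr with Ndnf (83 cells), Ndnf alone (80 cells) and Procr, Ly6a and Ndnf (50 cells). Among endothelial-marker cells 36.8% of 76 had at least 2 of the genes, Ly6a and Procr being the genes of the 6 that these cells hold most of.

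Co-detection was taken for all 15 pairs in Hopx-low cells, as the share of the second gene among cells with and without a UMI of the first, in the order Sprr1a, Procr, Ly6a, Gzme, Tnip3, Ndnf. For 6 pairs the share was higher in cells with the first gene and the intervals did not overlap, for 2 it was lower, and for 7 the intervals overlapped. Taking each of the 6 genes first and any other feature found in at least 5% of these cells second, 2.26% of 47112 pairs were higher with intervals apart and 1.91% lower. These shares are a description over cells of a pool of mice, and cells of different mice cannot be told apart.

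Ly6a and Gzme made the closest pair. Gzme was found in 27.8% (22.8 to 33.2) of the 306 cells with Ly6a and in 6.27% (4.13 to 9.05) of the 415 without, and read the other way Ly6a was found in 76.6% of the 111 Gzme cells and in 36.2% of the rest. Procr and Ly6a, which both encode surface proteins, also went together, with Ly6a in 52.3% (47.1 to 57.5) of Procr cells and 32.0% (27.1 to 37.2) of the others. Tnip3 was found in 17.5% of cells with Procr against 6.57% without, and in 17.6% of cells with Ly6a against 8.19% without. The chromosome 6 neighbours were found together as well, Ndnf being present in 79.5% (69.6 to 87.4) of the 88 Tnip3 cells and in 54.3% (50.4 to 58.3) of the other 633.

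Gzme was set apart from these 2 neighbours. Tnip3 was found in 5 of 111 Gzme cells (4.50%, 1.48 to 10.2) against 13.6% (11 to 16.6) of cells without Gzme, and Ndnf in 35.1% (26.3 to 44.8) against 61.5% (57.5 to 65.4). Within Hopx-low cells the 5 pairs of Sprr1a had overlapping intervals, such as Procr in 56.7% of Sprr1a cells and 49.8% of the rest, and Tnip3 in 12.3% and 12.2%. Over all keratin-high cells, in which Hopx-low and Hopx-raised cells are mixed, 3 of its pairs had intervals apart, with Procr in 56.6% against 45.0%, Ly6a in 42.5% against 29.5% and Gzme in 17.0% against 8.77%. In Hopx-raised cells 1 of the 15 pairs had intervals apart when read in the same order, with Ndnf in 93.1% of Procr cells and 78.2% of the others. Read the other way, Procr was also found in 58.1% (42.1 to 73.0) of Ly6a cells and 36.5% (31.3 to 42) of the rest.

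**Figure D4:**
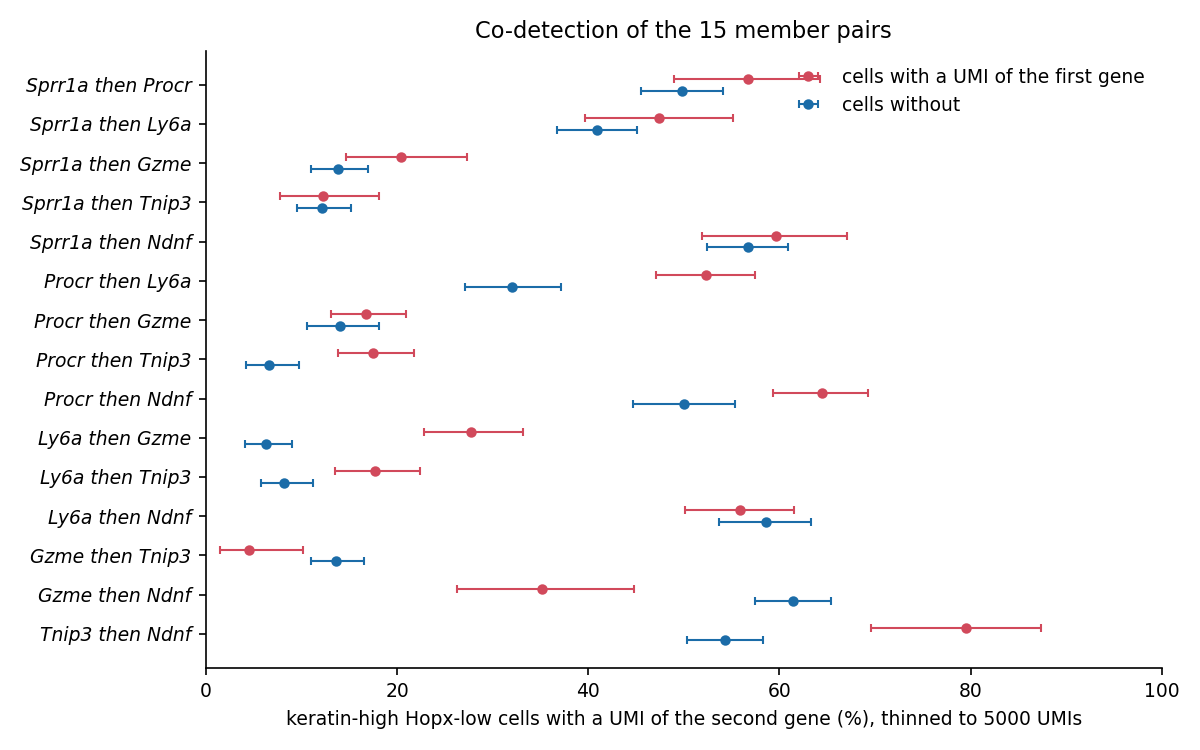
Share of thinned keratin-high Hopx-low cells (%) with a UMI of the second gene of each pair, among cells with (red) and without (blue) a UMI of the first gene; whiskers are exact 95% binomial intervals over 721 cells. Ly6a then Gzme stands at 27.8% against 6.27% and Gzme then Ndnf at 35.1% against 61.5%, and the intervals of the 5 pairs with Sprr1a overlap.

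The genes most like each of the 6 were ranked by Pearson correlation of log-transformed thinned UMIs over 1090 keratin-high cells, among 7920 genes with a UMI in at least 5% of them. Such values share the libraries and the depth of the cells and are descriptive. Gzme had the highest, 0.56 with Pthlh, the parathyroid hormone-related protein gene, then 0.47 with Gkn2 and 0.47 with Il33. Ly6a followed with 0.55 for Itga2, an integrin collagen receptor subunit, 0.38 for Krt23 and 0.36 for Aldh1a3. Ndnf was most like Lmo7 (0.49), Clic5 (0.48) and Cldn18 (0.41), the last of which forms alveolar tight junctions. Tnip3 was most like Aldh1a3 (0.43), Tm4sf1 (0.37) and AW112010 (0.33), so that Aldh1a3 stood among the top 3 of both Ly6a and Tnip3. Procr was most like S100a11 (0.36), S100a6 (0.36) and Cldn4 (0.35), and Sprr1a had only weak values, 0.22 for each of Lgals3, Sfn and F3.

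As shares of thinned Hopx-low cells, Pthlh was found in 63.1% (53.4 to 72.0) of cells with Gzme and 19.7% (16.6 to 23.1) of those without. Itga2 was found in 60.5% (54.7 to 66.0) of cells with Ly6a and 18.8% (15.2 to 22.9) of those without. Aldh1a3 was found in 33.0% (23.3 to 43.8) of cells with Tnip3 and 3.48% (2.19 to 5.21) of those without. The top genes of the other 3 were found in most cells either way, Lmo7 in 95.9% of cells with Ndnf and 81.1% without, Lgals3 in 98.8% of cells with Sprr1a and 92.2% without, and S100a11 in 99.7% of cells with and without Procr. Like Gzme, Pthlh (310 against 6.61 CPM) and Itga2 (266 against 16.3 CPM) were higher in Hopx-low than in Hopx-raised cells, and Aldh1a3 stood at 68.8 against 4.77 CPM.

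Cells with a UMI of the GFP trap were set beside cells with a UMI of Stk11, the trapped gene. Among keratin-high cells 642 had a GFP UMI only, 165 a Stk11 UMI only, 3 both and 373 neither. These are cells and not mice or treatment groups, cells with neither were shallower (median 14818 against 28317.5 and 24569 UMIs), and differences between mice cannot be told apart from differences that go with the transcript. Of the 6 genes, 1 (Gzme) was at least 2-fold higher in GFP cells and 2 (Procr and Tnip3) in Stk11 cells. Over 10894 features, 4.19% were at least 2-fold higher in GFP cells and 2.63% in Stk11 cells, with a median log2 ratio of 0.027. The split was known when the genes were chosen, so the count is a description.

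Gzme and Tnip3 went in opposite directions. Gzme had 369 CPM in GFP and 43.7 CPM in Stk11 keratin-high cells, 8.44 times higher (7.34 to 9.75) in the former, and Tnip3 had 16.9 and 191 CPM, 11.3 times higher (9.93 to 12.8) in the latter. With a keratin limit of 100 per 10000 the Tnip3 ratio was 7.30. In thinned Hopx-low cells a Gzme UMI was found in 18.5% (15 to 22.5) of 437 GFP cells and 4.85% (1.59 to 11) of 103 Stk11 cells (29.9% and 13.3% without thinning), and a Tnip3 UMI in 5.72% (3.74 to 8.33) and 43.7% (33.9 to 53.8) (18.8% and 56.2% without thinning). Cells with neither UMI lay between, at 14% for Gzme and 10.1% for Tnip3. Seen from the other side, of Hopx-low cells with 1 of the 2 transcripts, 81 of 86 with Gzme held GFP (94.2%, 87.0 to 98.1) against 25 of 70 with Tnip3 (35.7%, 24.6 to 48.1). The size of the Gzme ratio depended on few Stk11 cells: 3 of the 105 Hopx-low Stk11 cells held 84.5% of that class's Gzme UMIs, and the ratio was 74.6 with a keratin limit of 100 per 10000, 24.5 where at least 2 UMIs of GFP or Stk11 were asked for and 354 where the classes were drawn from thinned UMIs.

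**Figure D5:**
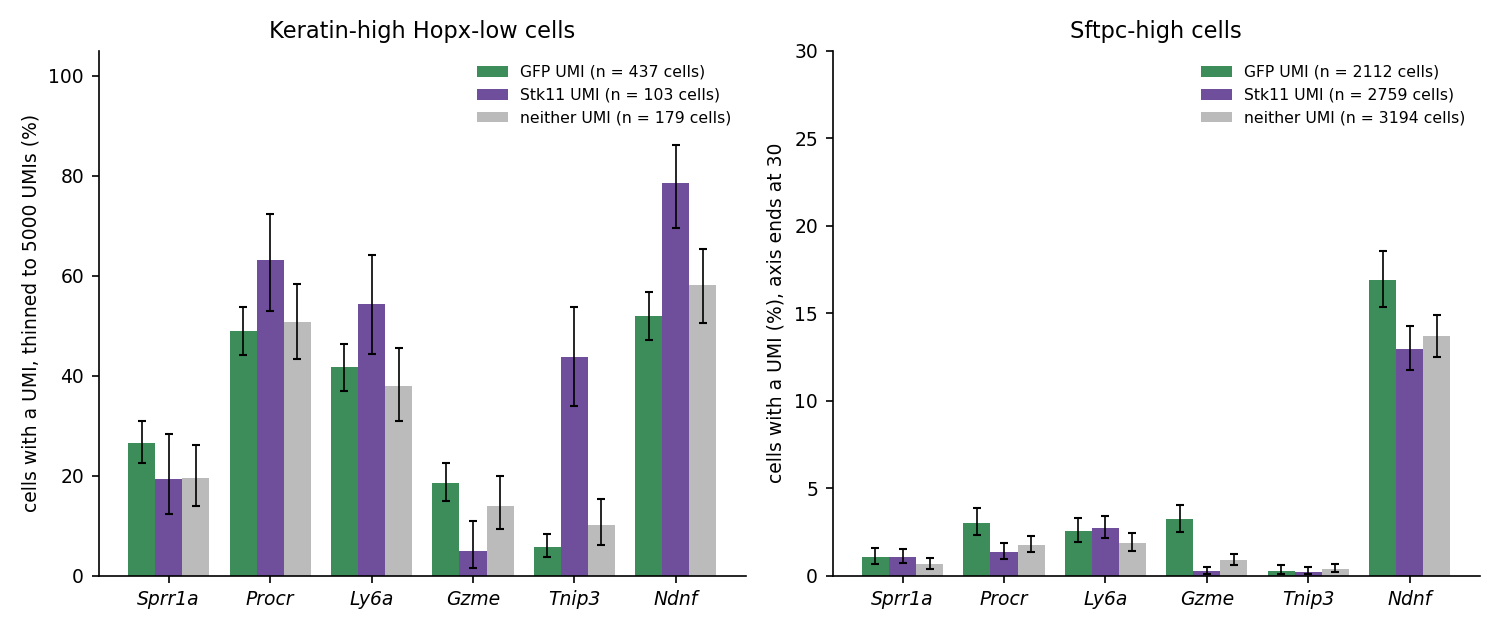
Share of cells (%) with a UMI of each gene after thinning to 5000 UMIs in keratin-high Hopx-low (left) and Sftpc-high cells (right, on an axis that ends at 30%) with a GFP UMI, a Stk11 UMI or neither; whiskers are exact 95% binomial intervals over cells. Tnip3 stands at 5.72% and 43.7% in GFP and Stk11 cells on the left, and Gzme at 3.22% and 0.254% on the right.

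The other 4 genes differed less. In keratin-high cells Procr had 365 CPM with GFP and 798 CPM with Stk11, 2.18 times higher (2.10 to 2.27) in the latter, and Ly6a had 340 and 557 CPM (1.64 times, 1.56 to 1.71). Ndnf had 460 and 827 CPM (1.80 times, 1.73 to 1.87). Sprr1a had 348 and 343 CPM, a ratio of 1.01 (0.959 to 1.07), but its 2 classes differed: it was 1.13 times (1.06 to 1.20) higher with GFP in Hopx-low cells and 1.69 times (1.49 to 1.92) higher with Stk11 in Hopx-raised cells. The Ly6a difference was 1.05 times with a keratin limit of 100 per 10000 and 2.26 times without the 244 deepest cells. The Procr and Sprr1a values depended on the richest cells. Without the 127 cells holding at least 100 UMIs of any of the 6 genes, Procr was 1.53 times higher in Stk11 cells and Sprr1a 2.18 times higher in GFP cells. As shares of thinned Hopx-low cells these 4 genes were found in 49.0% and 63.1% (Procr), 41.6% and 54.4% (Ly6a), 51.9% and 78.6% (Ndnf) and 26.5% and 19.4% (Sprr1a) of GFP and Stk11 cells, of which the intervals of Ndnf alone did not overlap (47.1 to 56.7 and 69.5 to 86.1). With Gzme and Tnip3, 1 of the 6 genes was thus higher with GFP and 2 with Stk11 with intervals apart, where over 7853 features found in at least 5% of these cells 2.13% were higher with GFP and 1.54% with Stk11. At least 2 of the genes were found in 76.7% (67.3 to 84.5) of 103 Hopx-low Stk11 cells and 61.3% (56.6 to 65.9) of 437 Hopx-low GFP cells. The intervals overlapped in Hopx-raised cells (51.7%, 38.4 to 64.8, and 44.7%, 37.6 to 51.9) and in Sftpc-high cells, where the order was the other way (1.63%, 1.19 to 2.18, and 2.60%, 1.97 to 3.38).

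In Sftpc-high cells the same split gave the same direction for Gzme and the other direction for Procr and Ndnf. Gzme stood at 20.2 against 2.20 CPM with GFP and Stk11 (9.19 times, 7.78 to 10.9), with a UMI in 3.22% (2.51 to 4.06) of 2112 GFP cells and 0.254% (0.102 to 0.522) of 2759 Stk11 cells (6.95% and 0.681% without thinning). For background, 0 of 76 endothelial-marker, 0 of 180 fibroblast-marker and 0 of 68 immune-marker thinned cells had a Gzme UMI, which allows up to 3.95%, 1.67% and 4.41%, at median depths of 9386, 14692 and 23683.5 UMIs, and a share under these limits cannot be told apart from free RNA. In the GFP class 33 cells with at least 10 UMIs held 76.8% of the Gzme UMIs, and the part of free RNA in the remainder was not tested. Procr was 1.60 times (1.38 to 1.86) and Ndnf 1.13 times (1.08 to 1.18) higher with GFP, opposite to keratin-high cells. Tnip3 was low in both, at 0.643 and 1.04 CPM, and its thinned shares of 0.284% and 0.217% had overlapping intervals. Sprr1a was 3.10 times higher in Stk11 cells (10.5 against 3.39 CPM), but 13 cells held 90.5% of those UMIs and the thinned shares were 1.04% and 1.05%. Keratin itself went with GFP here, Krt8 standing at 740 against 378 CPM, and its part in the Gzme difference was not tested.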

How the data were processed

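Single-cell libraries (10x Chromium 3′ v3) of sorted neoplastic cells from 6 mice were deposited as 1 matrix of whole UMI counts, which the authors made per the file headers with Cell Ranger 3.0.2 on mm10 and had not normalized. The study's methods merged libraries in Seurat with a minimum of 500 genes per cell; the deposited matrix held 2081 cells under it, and how that matrix was joined is not given in the sources used here. The 31055 features, 16017 cells and 266713311 UMIs were read as deposited. The deposited feature table (other than counts) gave gene IDs and symbols. Cells were filtered, classed by the stated limits, summed to CPM and thinned to 5000 UMIs (seed 42; 1099 shallower cells left out). With 1 pooled sample no test was run. Intervals are exact Poisson, conditional binomial and Clopper-Pearson. Ratios were counted at 2-fold among features with at least 50 UMIs in both classes together. The 6 genes and all lists were chosen with earlier results of these data known. Named list genes have at least 5 CPM in a class or a 2-fold ratio, or are genes listed at 0 or neighbours, named after their values were seen. Calls and thinning were tested on simulated data. Alternatives moved each limit, the thinning and the weighting of cells. Python 3.11.15, numpy 2.4.6, scipy 1.17.1 and pandas 2.3.3 were used. An allele of the mice and a listed gene are not reported here.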

Additional observations from a re-analysis of the deposited data

How the results depend on the processing

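No paired analysis was possible because no map from cells to mice was used here. The 6 genes stayed at least 2-fold higher in keratin-high Hopx-low than in Sftpc-high cells under every alternative run for that comparison, and none of the 216 gene ratios under alternatives turned its direction where the main ratio was at least 2-fold. The count of 5 genes at least 2-fold higher in Hopx-low than in Hopx-raised cells fell to 2 (Ly6a and Gzme) with a keratin limit of 100 per 10000, with a Hopx limit of 2 per 10000, and, chosen after seeing the data, without the cells holding at least 100 UMIs of a gene. It was 4 without the 244 deepest cells, where the ratio of Sprr1a was 1.998. The share of Hopx-low cells with at least 2 of the genes was 48.2% with a keratin limit of 30, 80.7% with one of 100, 69.7% without keratin-high cells that met the Sftpc limit, 45.1% thinned to 2000 UMIs, 80.7% not thinned and 59.4% without the cells holding at least 100 UMIs of a gene. The ratios of Gzme moved most, from 11.2 to 52.4 for Hopx-low over Sftpc-high, from 20.7 to 295 for Hopx-low over Hopx-raised and from 5.82 to 354 for GFP over Stk11 cells. The 3 genes that differed at least 2-fold between GFP and Stk11 cells became 2 to 4. Thinning and counting errors limit shares of rare transcripts, and no value here measures the spread between mice.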
